A study of Mus musculus with 12 samples.

Results

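The genes described here encode the machinery that tags proteins with ubiquitin, removes the tag and degrades tagged proteins. They are all genes whose symbol begins with Psma, Psmb, Psmc, Psmd, Psme, Ube2 or Usp followed by a digit or letter, apart from Psmb8, Psmb9, Psmb10, Ube2c and Usp18. The arrays held 72 such genes, on 82 probes, of 6774 named genes in all. By role they were 5 alpha and 7 beta subunits of the 20S core, 5 genes named Psmc, 9 named Psmd, 3 activators named Psme, 20 genes named Ube2 and 23 genes named Usp. A probe that the platform annotation gave to several genes was not taken, which left out 5 probes. The prefix is not a perfect guide to function: Psmd5, Psmd9 and Psmd10 encode chaperones of cap assembly and not subunits, Psmc3ip encodes a meiotic recombination factor that binds a proteasome ATPase and is no subunit, and Ube2d-ps is a pseudogene.

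The cells were primary skin keratinocytes of C57Bl/6NCr mice, transduced with an adenovirus encoding deltaNp63alpha, the p63 isoform without the N-terminal transactivation domain, or with one encoding beta-galactosidase, the control. Their total RNA was taken 41 h after transduction. For the last 24 h the medium held either 0.05 mM calcium, called low calcium here, or 0.12 mM, called high calcium, at which keratinocytes begin to differentiate. Every culture carried a virus, so cells without one were not part of the comparison, and no array set low against high calcium. On each of 12 spotted two-colour cDNA arrays deltaNp63alpha RNA was set against beta-galactosidase RNA of the same calcium level, in 3 repeats per level. Each repeat was hybridised once with deltaNp63alpha in Cy5 (the forward array) and once with it in Cy3 (the reversed array). These 2 arrays gave 1 pair value, the forward log2 ratio minus the reversed one, divided by 2, so that n counts pairs. A positive value means more signal in the RNA labelled deltaNp63alpha. The labels call the arrays technical repeats, and nothing says that the RNA came from separate cultures or animals, and p-values may therefore measure nothing but technical spread. In such bulk RNA, fewer cells of a type and less RNA per cell cannot be told apart.

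The direction of every sign is not settled. It rests on reading the deposited ratios as Cy5 over Cy3, and per the labels the second channel holds deltaNp63alpha on the reversed arrays too, which would fit a ratio that needs no turning. Over all rows the forward and the turned reversed array of a pair correlated below 0 in all 6 pairs (Pearson's r from -0.71 to -0.12, across rows, which are not replicates). The targeted gene gave this direction no backing: the single Trp63 probe was at -0.16 ± 0.25 (SE, n = 2 pairs) in low calcium and at -0.55 ± 0.25 (SE, n = 2 pairs) in high calcium, and was not called (limma adjusted p = 0.924 and 0.436). It is unknown here if that probe can see the transgene. Values with the deposited signs kept are therefore given beside the calls and beside many of the other values that change sign. Coverage fell into 2 sets of pairs. Repeat 1 in low calcium and repeats 1 and 2 in high calcium were filled for most probes, and the other 3 pairs were sparse. An array gave values for between 3366 and 9096 of the 9558 probes, and for 30 to 80 of the 82 probes described here. Of 8 keratinocyte markers on the arrays, 4 were tested in low and 7 in high calcium. Of these 1, Krt10, was called, lower in high calcium, where 1.47% of all rows were called. With the deposited signs kept 0 of 7261 rows were called there. No marker of fibroblasts, melanocytes, immune or endothelial cells was called. Ratios hold no levels, so the presence of a cell type cannot be read from them. The number of arrays limits the precision.

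Ubiquitin is activated by an E1 enzyme, passed to an E2 conjugating enzyme (the Ube2 genes) and placed on a target with the help of an E3 ligase. Ubiquitin-specific proteases (the Usp genes) take it off again. The 26S proteasome recognises and unfolds tagged proteins with its 19S cap and cuts them inside its 20S barrel. In keratinocytes this system sets the turnover of many regulators, p63 itself among them.

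Promoter sequence could be read for 57 of the 72 genes, in 64 windows from 250 bases before to 50 bases after the start of the gene (RefSeq, GRCm38.p6); 5 genes had several windows. The 250 bases before the start are shown for Usp19 and Ube2d3, which the results turn on, and for Psmb5, the catalytic subunit with the lowest value in high calcium. Each runs 5′ to 3′ on the gene's strand, in the order of the lines below: chr9:108490426-108490675 on the plus strand, chr3:135437982-135438231 on the plus strand (the first of 4 windows listed for that gene) and chr14:54617996-54618245 on the minus strand. Capitals mark a GC box (GGGCGG), the letters that give the CCAAT box its name or the core of an antioxidant response element (TGACNNNGC), on either strand.
Usp19: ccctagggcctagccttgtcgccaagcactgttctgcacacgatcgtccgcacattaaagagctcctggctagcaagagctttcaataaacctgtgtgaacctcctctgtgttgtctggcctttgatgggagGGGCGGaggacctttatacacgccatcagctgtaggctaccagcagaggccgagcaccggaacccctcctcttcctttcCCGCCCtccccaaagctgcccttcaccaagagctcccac
Ube2d3: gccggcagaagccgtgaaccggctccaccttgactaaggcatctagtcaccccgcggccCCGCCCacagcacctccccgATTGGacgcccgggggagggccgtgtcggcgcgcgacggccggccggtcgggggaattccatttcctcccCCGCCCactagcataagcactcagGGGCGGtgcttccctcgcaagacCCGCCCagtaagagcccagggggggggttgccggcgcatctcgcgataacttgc
Psmb5: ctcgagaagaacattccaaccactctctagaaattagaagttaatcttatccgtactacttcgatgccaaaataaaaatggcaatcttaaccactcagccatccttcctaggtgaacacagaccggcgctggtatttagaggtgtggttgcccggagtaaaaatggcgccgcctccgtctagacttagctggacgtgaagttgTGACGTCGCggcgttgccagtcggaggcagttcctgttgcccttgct
The stretch shown held 2 GC boxes for Usp19, 4 GC boxes and 1 CCAAT box for Ube2d3, and 1 antioxidant response element core for Psmb5.

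Over the whole windows, GC boxes were in 44 of 64 (68.8%), against 35.7% of all 32851 promoter windows of the table. CCAAT boxes were in 16 of 64 (25%), against 37.4% of all windows, and in 8 of the 17 windows of 26S subunit genes (47.1%). The antioxidant response element core, which the factors Nfe2l1 and Nfe2l2 bind at proteasome genes, was in 13 of 64 (20.3%), against 12.4%. It was in 3 of the 17 windows of 26S subunit genes (17.6%), in 4 of 22 of Ube2 genes (18.2%) and in 5 of 18 of Usp genes (27.8%). A p53 family half-site, the type of sequence that p63 can bind, was in 3 of 64 (4.69%), against 8.36%, and in none of the 3 stretches shown. A match is a description of the letters in a window and not a binding site.

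With the reversed arrays turned, deltaNp63alpha RNA and control RNA differed little for most of the genes that could be tested, and 2 stood out. Usp19 rose in high calcium, by 1.88 on the log2 scale, and Ube2d3 fell there, by 1.03. Neither was called with the deposited signs kept. That reading instead called 4 of the 39 genes tested in low calcium (10.3%), against 15.5% of all rows. No gene of the proteasome core, cap or activators passed the test at either calcium level. The plot of pair values by gene shows Usp19 as the one row that is high throughout.

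**Figure D1:**
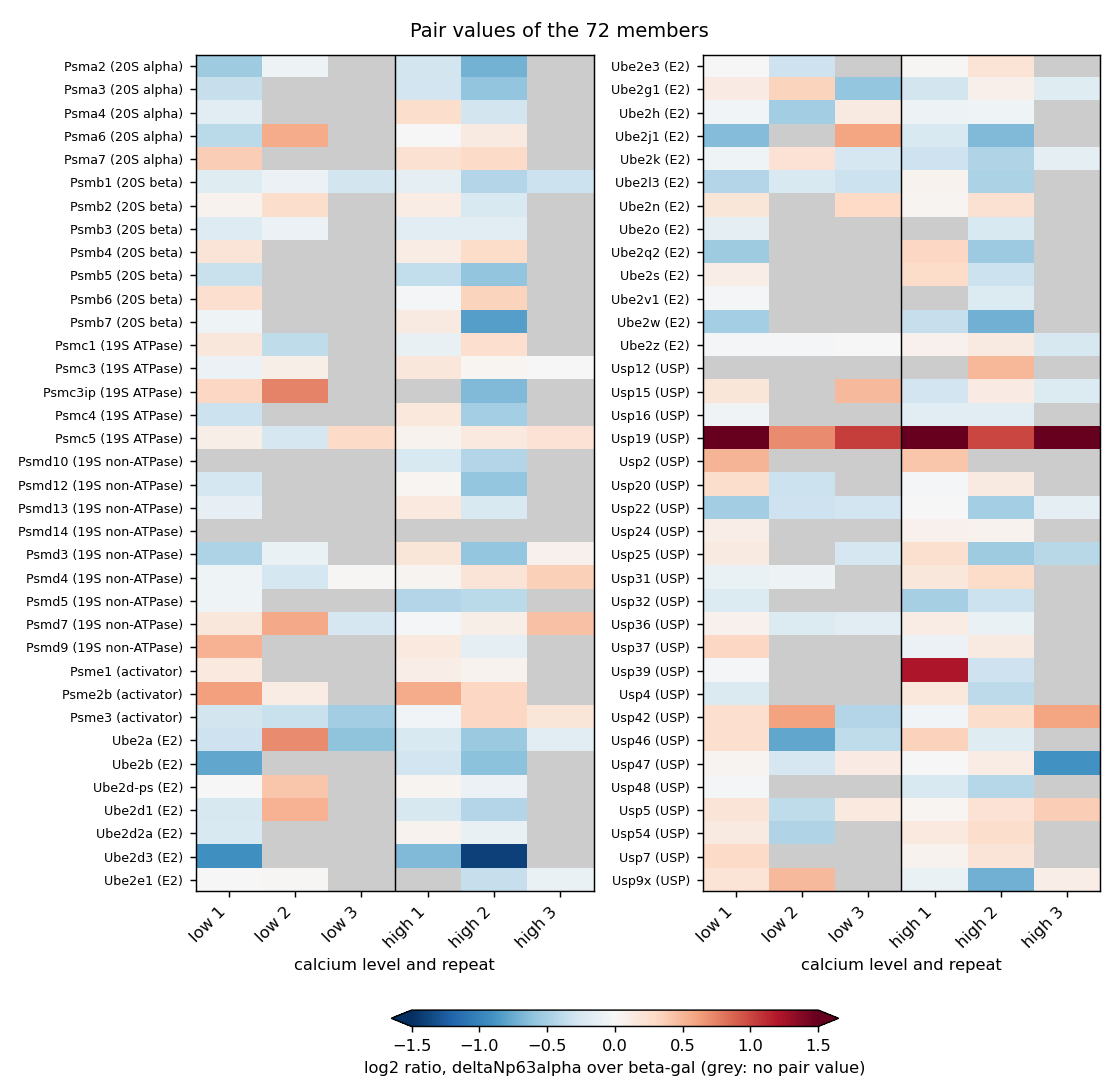
Pair values (log2 ratio of deltaNp63alpha over beta-galactosidase, colour from -1.5 to 1.5) of the 72 genes by role, in the 3 repeats of low and of high calcium; grey marks a missing pair value. Usp19 is above 0 in all 6 pairs, and most grey cells lie in the 3 sparse pairs (low 2, low 3 and high 3).

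A gene was tested at a level with at least 2 pairs there, by limma fitted over all 8875 rows with Benjamini-Hochberg adjustment over every row tested, and called at an adjusted p under 0.05. In low calcium 39 of the 72 genes could be tested, 30 had a single pair and 3 had none. None of the 39 was called (limma), against 19 of 4637 rows (0.41%) over the whole array. At an unadjusted p under 0.05 there were 4, 2 higher (Usp19, Psmc3ip) and 2 lower (Psme3, Usp22), against 9.58% of all rows. In high calcium 66 genes could be tested and 2 were called, 1 in each direction, against 107 of 7261 rows (1.47%), of which 40 were higher (0.551%). At an unadjusted p under 0.05 there were 9 genes, 2 higher and 7 lower, against 11.7% of all rows. The shares of called genes were thus near those of the array as a whole. Psmd14, Ube2o, Ube2v1, Usp12 and Usp2 could be tested at neither level.

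The middle of the distribution lay close to 0. The median log2 ratio of the genes tested was -0.03 in low calcium, where 15 of 39 were above 0, and -0.05 in high calcium, where 27 of 66 were above 0. The medians of all rows tested were 0.02 and 0.01. The medians turned positive with the deposited signs kept, to 0.10 at both levels (22 of 39 and 43 of 66 above 0). Between -0.5 and 0.5 lay 94.9% of the genes in low and 95.5% in high calcium, against 94.1% and 91.6% of all rows.

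**Figure D2:**
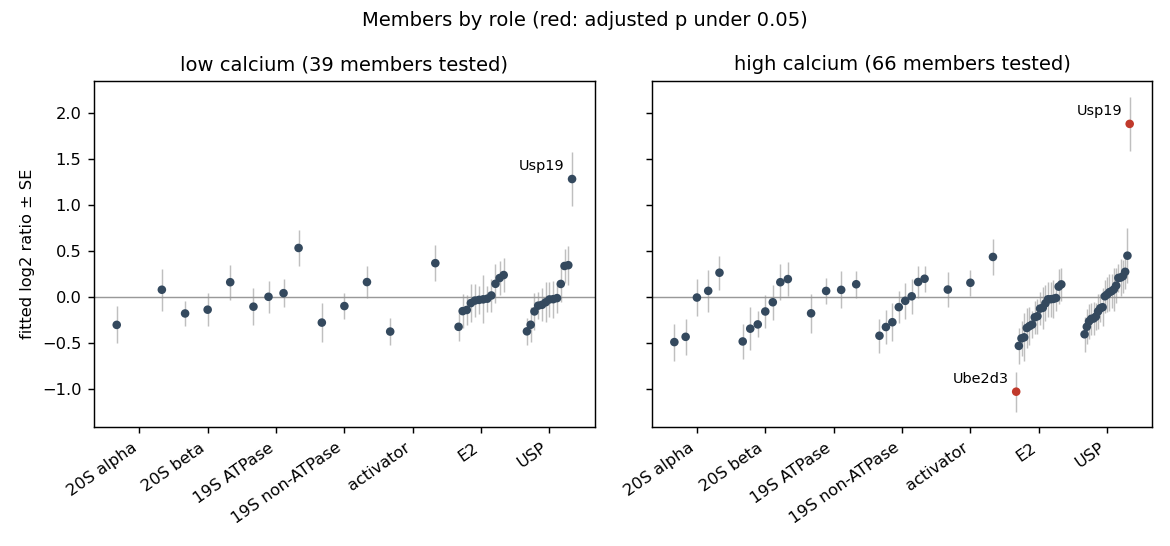
Fitted log2 ratio ± SE of every gene tested, by role (sorted by value within a role), in low calcium (39 genes) and high calcium (66 genes); red points have a limma adjusted p under 0.05. Usp19 at 1.88 and Ube2d3 at -1.03 are the red points, both in high calcium.

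Among the deubiquitinating enzymes, Usp19 was the gene furthest from 0. It encodes a ubiquitin-specific protease with a membrane-anchored form at the endoplasmic reticulum. Its single probe gave pair values of 1.77, 1.00 and 2.88 in high calcium repeats 1, 2 and 3, and of 2.09, 0.71 and 1.04 in low calcium repeats 1, 2 and 3. All 6 pairs were thus above 0, and the values of the 2 levels overlapped. On the log2 scale it was higher by 1.88 ± 0.29 in high calcium (SE, n = 3 pairs, 95% confidence interval 1.25 to 2.52, limma adjusted p = 0.00934), which is 3.69-fold. That was the highest log2 ratio of the 7261 rows tested there and the 12th smallest p-value; with the deposited signs kept it was the 42nd highest and the 1856th smallest. Of the 40 rows called higher in high calcium 8 were named genes, Usp19 among them, and 32 were unnamed. In low calcium it was at 1.28 ± 0.29 (SE, n = 3 pairs, limma adjusted p = 0.0984), which did not pass; 1 row was called higher there (0.0216% of rows). At the same value of 1.28 it was called in low calcium with each level fitted alone (limma adjusted p = 3.1e-06) and without high calcium repeat 1 (2.92e-06), 2 (1.34e-06) or 3 (0.0288). The SE was smaller in these settings (0.22, 0.22, 0.21 and 0.23, in that order). In all but the last of them the fit gave Usp19 a spread common to the genes. The spread of its own pairs thus did not enter those p-values, which are no measure of how well its pairs repeat. More of all rows were called as well (49, 49, 50 and 27 of 4637, against 19 in the main setting). The difference between the levels was 0.60 ± 0.42 (SE, limma adjusted p = 0.999), so that no difference was shown.

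The single arrays show how evenly the 2 dye orders carried this value. With the reversed arrays turned, the forward and reversed arrays of Usp19 were at 2.17 and 2.02 in low calcium repeat 1, at 2.00 and 1.53 in high calcium repeat 1 and at 1.07 and 0.93 in high calcium repeat 2. In these well-filled pairs both dye orders gave the same sign and similar sizes. In the sparse pairs they differed: 1.59 and -0.17 in low calcium repeat 2, 2.5 and -0.42 in low calcium repeat 3, and 4.46 and 1.30 in high calcium repeat 3. Forward arrays were above the turned reversed arrays in all 6 pairs. With high calcium repeat 3 left out, the value was 1.38 (limma adjusted p = 0.0306), and in the well-filled pairs alone 1.38 (3.41e-05). It was 0.63 in high calcium with the deposited signs kept (limma adjusted p = 0.363), and the call was lost, as was every other call of the array. The forward arrays alone gave 2.51 (0.117) and the reversed arrays alone 1.25 (0.293), neither of which passed. The call was also lost at nearly the same log2 ratio with a trended and robust variance (1.88, adjusted p = 0.536), with all arrays brought to the same spread (1.90, 0.0913) and with a pair of 1 measured array kept at that array's value (single arrays kept, 1.88, 0.553). In the settings named here that lost the call, 0 or 1 of all rows tested were called in high calcium.

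**Figure D3:**
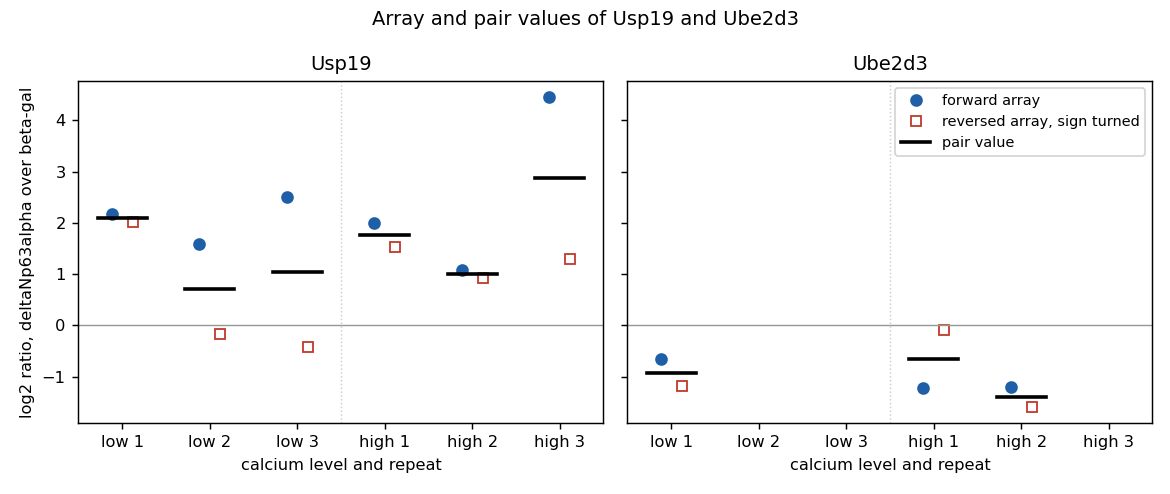
Log2 ratio of deltaNp63alpha over beta-galactosidase for Usp19 and Ube2d3 on each array (blue circles, forward; open red squares, reversed with the sign turned) and their pair value (black bar), by calcium level and repeat. Usp19 is above 0 on 10 of 12 arrays, and Ube2d3 is below 0 on the 6 arrays that measured it.

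The other genes named Usp varied around 0 and none was called. Counted together with Usp19, 12 of 21 were above 0 in high calcium, with a median of 0.03. In low calcium 4 of 13 were, Usp19 again included, with a median of -0.03. Usp39, a splicing factor of this family without protease activity, was at 0.45 ± 0.30 in high calcium (SE, n = 2 pairs), from pairs of 1.21 and -0.31 that had opposite signs, and at -0.83 with the deposited signs kept. Its repeat 1 value came from a reversed array at 2.77 beside a forward array at -0.35. Usp42 was at 0.27 ± 0.19 in high calcium (SE, n = 3 pairs) and Usp31 at 0.22 ± 0.18 (SE, n = 2 pairs; -0.05 with the deposited signs kept). Usp47, which acts on a polymerase of base excision repair, was near 0 in high calcium repeats 1 and 2 (0.01 and 0.11) and at -0.91 in the sparse repeat 3; it fitted to -0.27 ± 0.19 (SE, n = 3 pairs), or to 0.03 with the deposited signs kept.

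Several well-known deubiquitinating enzymes were close to 0 or of mixed sign. Usp7, which acts on the p53 regulator Mdm2, was at 0.12 ± 0.19 in high calcium (SE, n = 2 pairs). Usp5, which disassembles free ubiquitin chains, was at 0.21 ± 0.16 in high calcium and at -0.01 ± 0.16 in low calcium (SE, n = 3 pairs each). Usp5 was called in low calcium, at 0.60, with the deposited signs kept (limma adjusted p = 0.0451); that reading called 719 of 4637 rows there (15.5%) and 4 of the 39 genes described here (10.3%). Usp9x was at 0.34 ± 0.21 in low calcium (SE, n = 2 pairs) and at -0.24 ± 0.17 in high calcium (SE, n = 3 pairs), and Usp15 at 0.34 ± 0.19 (SE, n = 2 pairs) and -0.12 ± 0.15 (SE, n = 3 pairs). With the deposited signs kept Usp9x was at -0.47 in low calcium. The differences of both genes between the levels did not pass (limma adjusted p = 0.999 for each).

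Usp22, the deubiquitinating enzyme of the SAGA complex, shows how much a value can rest on the probe. In low calcium it was at -0.38 ± 0.15 (SE, n = 3 pairs, limma adjusted p = 0.426), with pairs at -0.53, -0.31 and -0.29. The deposited signs, if kept, gave 0.28 in low and 0.05 in high calcium. Its first probe lay between -0.18 and 0.23 in the 4 pairs that measured it. Its second probe was at -1.28, -0.44 and -0.29 in low calcium and at -1.20 and -0.14 in high calcium repeats 2 and 3. Usp46 was at -0.30 ± 0.19 in low calcium (SE, n = 3 pairs), where its 2 probes shared no pair. The first was at 0.25 in repeat 1 and the second at -0.78 and -0.38 in repeats 2 and 3. Probe and repeat cannot be told apart there. In high calcium the 2 probes had the same sign in repeat 1 (0.55 and 0.14) and in repeat 2 (-0.04 and -0.32).

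Among the E2 enzymes, Ube2d3 was the gene that fell. It encodes an E2 of the UBE2D family, which works with many E3 ligases. Its pair values were -0.66 and -1.40 in high calcium repeats 1 and 2 and -0.92 in low calcium repeat 1, and the sparse pairs gave none. All 3 pairs were below 0. On the log2 scale it was at -1.03 ± 0.22 in high calcium (SE, n = 2 pairs, 95% confidence interval -1.51 to -0.55, limma adjusted p = 0.0477). Its p-value was the 102nd smallest and its log2 ratio the 41st lowest of 7261 rows; with the deposited signs kept they were the 4933rd and the 2130th. The forward and turned reversed arrays were at -1.23 and -0.09 in high calcium repeat 1, at -1.20 and -1.60 in high calcium repeat 2 and at -0.65 and -1.19 in low calcium repeat 1. The call lies at the threshold: with the probes of a gene averaged on each array before pairing, the adjusted p was 0.0506, and without either high calcium pair it could not be tested. With the deposited signs kept the value was -0.19 (limma adjusted p = 0.715). It was not called either with forward arrays alone (-1.22, adjusted p = 0.133), reversed arrays alone (-0.85, 0.518), arrays on the same spread (-1.45, 0.141), a trended and robust variance (-1.03, 0.470) or single arrays kept (-1.03, 0.721).

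For other members of the UBE2D family no change was called. Ube2d1 was at -0.34 ± 0.21, below 0 in both pairs (-0.24 and -0.44), Ube2d2a at -0.03 ± 0.19 and the pseudogene Ube2d-ps at -0.03 ± 0.19 in high calcium (SE, n = 2 pairs each). Their difference from Ube2d3 was not tested. These genes are close in sequence, and spotted cDNA probes may not keep them apart; this was not tested.

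Below 0 in high calcium were 16 of the 18 tested genes named Ube2, with a median of -0.17, against 3581 of 7261 rows. The pseudogene Ube2d-ps, at -0.03, is among the 16. With the deposited signs kept 9 of 18 were below 0, with a median of 0.00, so that this side of 0 depends on the orientation. In low calcium 8 of 12 were below 0, with a median of -0.03. Ube2w, which tags the N-terminus of proteins, was at -0.53 ± 0.20 in high calcium (SE, limma adjusted p = 0.268), from pairs of -0.35 and -0.72, and at 0.10 with the deposited signs kept. It was called in the well-filled pairs alone, where 8.07% of all rows were called. Ube2b, the RAD6 homologue that acts in DNA damage tolerance, was at -0.45 ± 0.19 (SE, limma adjusted p = 0.388), from pairs of -0.28 and -0.62; low calcium repeat 1 gave -0.78. The fitted value was 0.12 with the deposited signs kept. Ube2j1, an E2 of degradation at the endoplasmic reticulum, was at -0.44 ± 0.26 (SE, limma adjusted p = 0.608). Those 3 genes had 2 pairs each in high calcium.

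Ube2a, the other RAD6 homologue, had pairs of -0.22, -0.56 and -0.17 in high calcium and of -0.31, 0.71 and -0.60 in low calcium. Its fitted values were -0.32 ± 0.21 and -0.07 ± 0.21 (SE, n = 3 pairs each), and neither passed. With the deposited signs kept, Ube2a at -0.93 and Ube2j1 at -0.71 were called in low calcium (limma adjusted p = 0.0392 and 0.0479), where that reading called 15.5% of all rows. Ube2n, which makes lysine-63 chains, was above 0 in all 4 of its pairs, from 0.04 to 0.29. Ube2l3, an E2 for HECT and parkin-type ligases, was at -0.33 ± 0.15 in low calcium (SE, n = 3 pairs, limma adjusted p = 0.533), and at 0.71 with the deposited signs kept. Ube2k was at -0.30 ± 0.15 in high calcium (SE, n = 3 pairs, limma adjusted p = 0.483) and Ube2g1 at -0.13 ± 0.18 (SE, n = 3 pairs). Ube2z was the flattest of the E2 genes complete in all pairs, between -0.24 and 0.13.

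In the 20S core, no subunit was called. The catalytic subunits Psmb5, Psmb6 and Psmb7, which cut after different kinds of residue, had a value in 3 pairs each. Psmb5 was at -0.33 in low calcium repeat 1 and at -0.37 and -0.60 in high calcium repeats 1 and 2, which fitted to -0.49 ± 0.19 (SE, n = 2 pairs, limma adjusted p = 0.314). Psmb6 was at 0.25, -0.02 and 0.34 in the same pairs and Psmb7 at -0.06, 0.13 and -0.82. The 3 catalytic genes thus did not share a sign. Psmb5 was at 0.15 in high calcium with the deposited signs kept.

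Structural subunits of the core showed values of similar size. Psma2 was below 0 in its 4 pairs (-0.54 and -0.07 in low calcium, -0.28 and -0.71 in high calcium) and fitted to -0.49 ± 0.20 in high calcium (SE, n = 2 pairs, limma adjusted p = 0.339). Its sign turned with the forward arrays alone (0.10) and with the deposited signs kept (0.24). Psma3 was at -0.44 ± 0.19 in high calcium (SE, n = 2 pairs, limma adjusted p = 0.411; 0.18 with the deposited signs kept), and Psma7 at 0.26 ± 0.19 (SE, n = 2 pairs). Psmb1 was below 0 in all 6 pairs, from -0.44 to -0.08, and fitted to -0.30 ± 0.14 in high calcium (SE, n = 3 pairs, limma adjusted p = 0.433). Its 2 probes had opposite signs in low calcium repeat 1 (-0.64 and 0.28). Psmb3 was below 0 in its 4 pairs, from -0.19 to -0.09, but at 0.70 in low and 0.25 in high calcium with the deposited signs kept. In high calcium 3 of 5 alpha and 5 of 7 beta subunits were below 0, and the 12 genes ran from -0.49 to 0.26. With the deposited signs kept 1 of 5 and 1 of 7 were below 0.

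In the 19S cap no gene was called. Of the ATPases that unfold the substrate, Psmc1, Psmc3 and Psmc5 were between 0.06 and 0.14 in high calcium and Psmc4 was at -0.18 ± 0.21 (SE, n = 2 pairs). Psmc5 had a value in all 6 pairs, from -0.25 to 0.28. Psmc3ip, which only shares the prefix, was at 0.53 ± 0.20 in low calcium (SE, n = 2 pairs, limma adjusted p = 0.399), and its single high calcium pair was at -0.66. It was called with the opposite sign in low calcium when the deposited signs were kept (-0.83, limma adjusted p = 0.0462), the reading with 15.5% of rows called. Among the genes named Psmd, Psmd5, a chaperone of cap assembly, was at -0.42 ± 0.19 in high calcium (SE, n = 2 pairs, limma adjusted p = 0.410), with both pairs near that value (-0.44 and -0.41). Psmd4, a ubiquitin receptor, was at 0.20 ± 0.14 in high calcium and -0.10 ± 0.14 in low calcium (SE, n = 3 pairs each). Psmd7 was at 0.16 ± 0.17 at both levels (SE, n = 3 pairs each), and Psmd3 was at -0.11 ± 0.17 in high calcium (SE, n = 3 pairs) and -0.28 ± 0.21 in low calcium (SE, n = 2 pairs; 0.07 with the deposited signs kept). Psmd14, the deubiquitinating enzyme of the cap, had no pair value.

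The activators open the core without the 19S cap. Psme3, the nuclear activator, was at -0.27, -0.34 and -0.52 in low calcium and at -0.04, 0.31 and 0.18 in high calcium. Its fitted values were -0.38 ± 0.14 (limma adjusted p = 0.380) and 0.15 ± 0.14 (SE, n = 3 pairs each), or -0.06 and 0.26 with the deposited signs kept. The difference of 0.53 ± 0.20 (SE) was the only one of 38 at an unadjusted p under 0.05, against 2.48% of all rows, and it was not called (limma adjusted p = 0.999). Psme2b, a retrocopy of Psme2, was above 0 in its 4 pairs, from 0.12 to 0.62, and fitted to 0.43 ± 0.20 in high calcium (SE, n = 2 pairs, limma adjusted p = 0.419). In low calcium it was at 0.37 ± 0.20 (SE, n = 2 pairs), and at -0.80 with the deposited signs kept. Psme1 was at 0.08 ± 0.19 in high calcium (SE, n = 2 pairs).

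For the difference between the calcium levels, 38 genes had at least 2 pairs at each. None was called, and neither was any of 4198 rows (limma; 0% of rows, with 104 rows at an unadjusted p under 0.05). The fitted differences, high minus low calcium, ran from -0.58 for Usp9x to 0.60 for Usp19, with a median of 0.04. Of genes with at least 4 pairs, 6 of 38 (15.8%) had the same sign in every pair, against 17.3% of all rows: Usp19, Ube2n and Psme2b above 0 and Psma2, Psmb1 and Psmb3 below 0. That share is near the one for all rows.

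**Figure D4:**
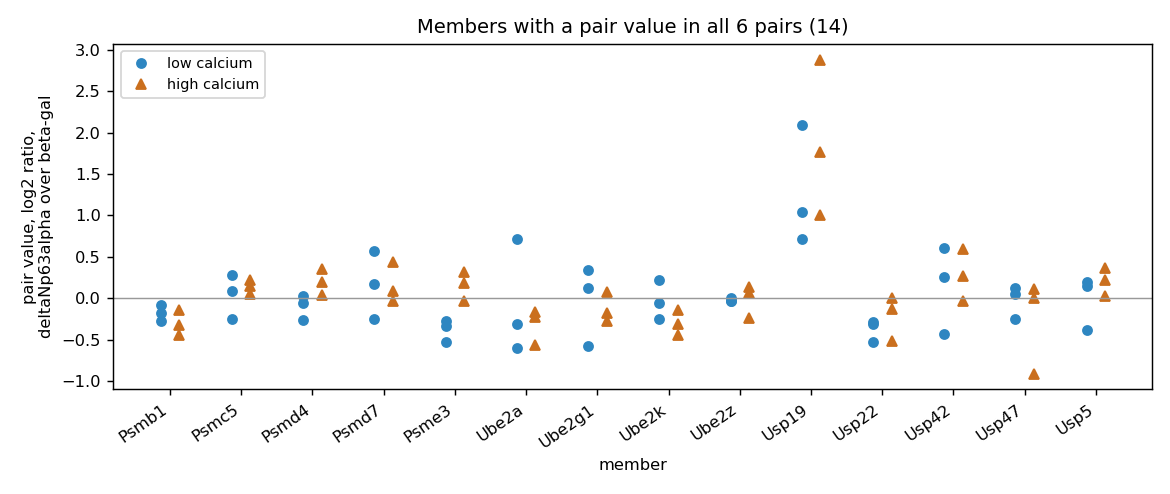
Pair values (log2 ratio of deltaNp63alpha over beta-galactosidase) of the 14 genes with a value in all 6 pairs, in low calcium (blue circles) and high calcium (orange triangles). Usp19 lies between 0.71 and 2.88, and the other 13 genes lie between -0.91 and 0.71.

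The 2 arrays of a pair mostly did not repeat each other for these genes. With the reversed array turned, 24 of 69 genes had the same sign on both arrays in low calcium repeat 1, 9 of 35 in repeat 2 and 6 of 22 in repeat 3. In high calcium the counts were 30 of 66, 40 of 70 and 6 of 20. High calcium repeat 2 was the only pair in which more than 50% of the genes had one sign (57.1%). Across genes, which are not independent replicates, Pearson's r between the arrays of a pair ran from -0.57 to 0.28, and without Usp19 from -0.62 to 0.22. Over all rows it was below 0 in every pair, so that a component shared by both dye orders was larger than the one that turned with the dye. A shared component of unequal size on the 2 arrays is not fully removed from the pair value, and its part in the values here was not tested.

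**Figure D5:**
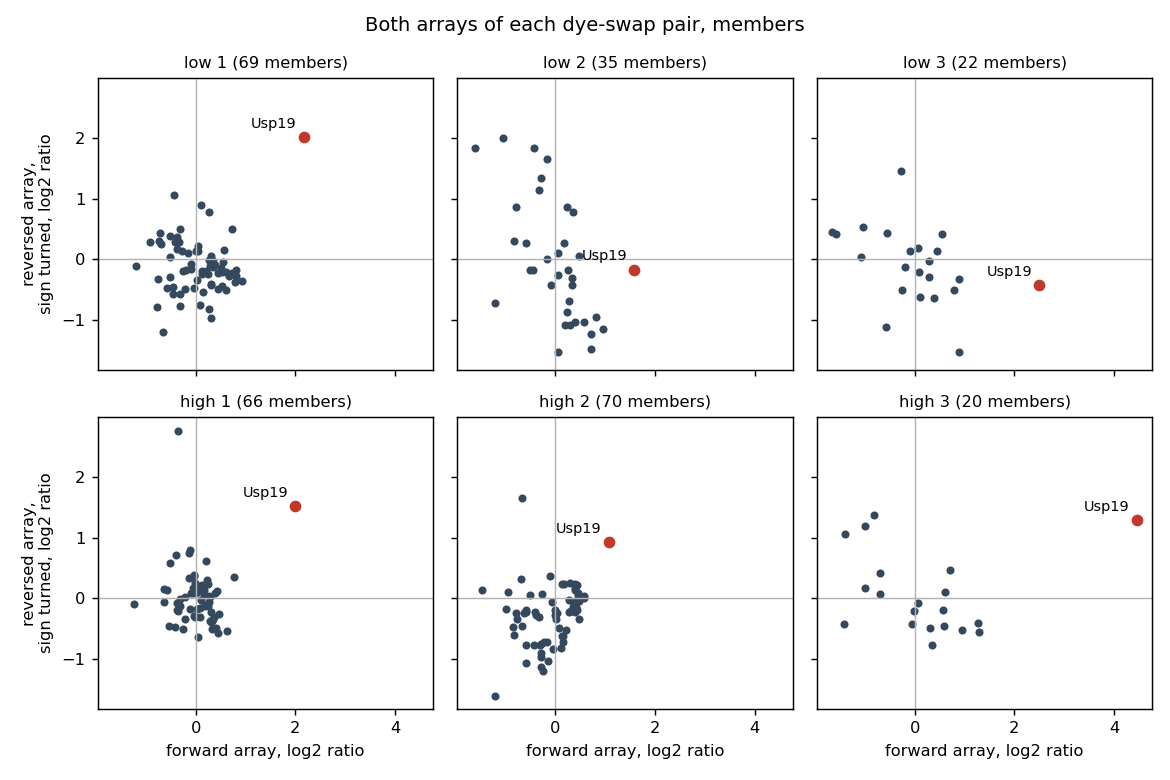
Log2 ratio of each gene on the forward array (horizontal) and on the reversed array with its sign turned (vertical), for the 6 dye-swap pairs; genes with several probes are averaged on each array. Usp19 (red) is far to the upper right in the panels low 1, high 1 and high 3, and at 1.07 and 0.93 in high 2. Pearson's r of the other genes was -0.62, -0.44 and -0.59 in low 2, low 3 and high 3, a falling trend. It was -0.13, -0.20 and 0.22 in low 1, high 1 and high 2.

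The other genes of the pathway were taken from a list of E1 enzymes, assembly chaperones, the p97 complex and shuttle factors, other deubiquitinating enzymes, E3 ligases and cullins, ubiquitin-like proteins and regulators. Of these 43 were on the arrays, 21 were tested in low and 38 in high calcium, and none was called in either direction (limma). At an unadjusted p under 0.05 there were 5 of 21 in low and 8 of 38 in high calcium, all lower. Over the whole array there were 444 of 4637 rows (9.58%, 252 lower) and 850 of 7261 rows (11.7%, 659 lower). With the deposited signs kept 2 of those 5 and 4 of those 8 genes were still below 0. That reading called 5 of the 21 genes in low calcium, against 719 of 4637 rows (15.5%). The medians were -0.07 at both levels, against 0.02 and 0.01 over all rows. Nfe2l1, the factor that drives proteasome gene transcription when proteasome activity falls, was at -0.39 and -0.93 in low calcium repeats 1 and 3 and at -0.35 and -0.79 in high calcium repeats 1 and 2. Its fitted values were -0.66 ± 0.21 and -0.57 ± 0.21 (SE, n = 2 pairs each, limma adjusted p = 0.284 and 0.243), and 0.04 and 0.08 with the deposited signs kept. Mdm2, the E3 ligase of p53, was below 0 in its 5 pairs and fitted to -0.51 ± 0.20 in low calcium (SE, n = 2 pairs, limma adjusted p = 0.399) and -0.51 ± 0.16 in high calcium (SE, n = 3 pairs, limma adjusted p = 0.169), and to 0.06 at both levels with the deposited signs kept. In high calcium the scaffold Cul1 was at -0.64 ± 0.19 (SE, n = 2 pairs, limma adjusted p = 0.151). Brcc3, a lysine-63 deubiquitinating enzyme, was at -0.69 ± 0.20 there (SE, n = 2 pairs, limma adjusted p = 0.151). With the deposited signs kept Cul1 was at -0.34 and Brcc3 at -0.88. The 2 dye orders differed for Brcc3, at -1.57 with forward arrays alone and 0.20 with reversed arrays alone. Uba6 and Sae1, from the list of E1 enzymes, had fitted values between -0.07 and 0.10 at both levels. The single pairs of Sae1 ran from -0.64 to 0.48.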

How the data were processed

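The authors deposited 1 log ratio per probe and array. Log2 is the unit taken for these deposited values, from their range (-7.88 to 4.60), because the base is not stated. Array medians lay between -0.0005 and 0.0005, so the deposited values were already centred. Which dye is the numerator, how arrays were scanned and normalised, and which spots were dropped is not given in the sources used here.

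Of the probes, 7457 had 1 gene symbol in the platform annotation, 481 had several and 1620 were not listed. Pair values were formed per probe and then averaged into 6774 genes and 2101 unnamed rows. This order was chosen after the data were seen; averaging probes before pairing is an alternative. Arrays were centred on their medians. limma 3.58.1 (R 4.3.3; lmFit, eBayes) fitted 3 + 3 pairs. A row needed 2 pairs at a level. Calls took a Benjamini-Hochberg adjusted p under 0.05 over all rows tested, and every adjusted p in the text is limma's. The procedure was tested on simulated data.

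Named genes were every called gene, the 6 highest and 6 lowest per level, the smallest p per role and level, and genes with all 6 pairs. For other pathway genes they were up to 2 per list; further names were chosen after their values were seen. The genes and lists were chosen with earlier results of these data known. Same-numbered repeats of the 2 levels did not deviate together (r = -0.02, -0.10 and 0.22 over 1361 rows), so numbers were not treated as pairing. Alternatives varied orientation, centring, spread, variance model, pair minimum, probe handling, blocks, array set and left-out repeats. Promoter sequence is RefSeq's (GRCm38.p6), matched by gene ID. Protein sequences were not used here.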

Additional observations from a re-analysis of the deposited data

Results flagged for a closer look

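A sample far from the others of its group was found in 2 of 57 groups of 4 to 6 array values examined, where chance gives about 1 in 20. For Usp19 in high calcium, the forward array of repeat 3, in the sparse set, was at 4.46, while the other 5 arrays lay between 0.93 and 2.00. Without that repeat Usp19 was at 1.38 (limma adjusted p = 0.0306). For Usp39 in high calcium, the reversed array of repeat 1 was at 2.77 after its sign was turned, while the other 3 arrays lay between -0.41 and -0.22. Without that repeat Usp39 had 1 pair and could not be tested.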

How the results depend on the processing

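Of 1016 values of named genes over 20 alternatives, 909 kept their direction and their side of the threshold. Another 44 lay within 1 SE of 0 and changed sign, 13 passed in the main setting alone, 9 passed in the alternative alone and 41 reversed; a change of sign counted as reversed where the value reported exceeded its SE or was called in either setting. The 909 include settings that could change little. The arrays were already centred, and all 56 values kept theirs without centring. Leaving out a repeat of 1 level does not move the log2 ratios of the other. Of 56 values, 28 kept direction and side with the deposited signs kept, 36 with reversed arrays alone and 39 with forward arrays alone. The causes of the changes were not tested. Genes called in low calcium (0) numbered 4 of 39 with the deposited signs kept (10.3%, against 15.5% of all rows). They numbered 1 of 45 with reversed arrays alone (Psmc3ip, 2.22%, against 6.18%). They numbered 1 of 39, Usp19, with each level alone (2.56%, against 1.06%) and with the replicate block (2.56%, against 1.34%). With a repeat left out they numbered 0 to 1. Usp19 was called without high calcium repeat 1, 2 or 3, where 1.06%, 1.08% and 0.582% of all rows were called. Genes called in high calcium (2) numbered 0 with the deposited signs kept, forward or reversed arrays alone, arrays on the same spread, a trended and robust variance, or single arrays kept, where 0 or 1 of all rows were called. They numbered 3 in the well-filled array set alone (561 of 6953 rows called). They numbered 1 with 3 pairs required or with probes averaged before pairing, and 1 to 2 with a repeat left out, where Ube2d3 had too few pairs. With the replicate block, which pairs repeats by number as the main setting did not, Usp19 in low calcium passed (adjusted p = 6.83e-08). The calls over all rows went from 19 to 62 in low and from 107 to 122 in high calcium. The replicate block also gave Usp19 a spread common to the genes, so the spread of its own pairs did not enter that p-value. The median in low calcium moved to 0.0973 with the deposited signs kept and to -0.222 with reversed arrays alone, and ran from -0.120 to -0.0283 with a repeat left out; in high calcium it was 0.0990 with the deposited signs kept and ran from -0.0526 to 0.0016 with a repeat left out. The array set alone could not be fitted in low calcium, where it holds 1 pair.

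Reversed values with the deposited signs kept were, in low calcium, Psma2 0.554, Psmc3ip -0.828, Psmd3 0.0742, Psme2b -0.798, Ube2l3 0.710, Usp22 0.280, Usp5 0.602 and Usp9x -0.471, and in high calcium Psma2 0.244, Psmb5 0.147, Ube2b 0.122, Ube2l3 0.101, Ube2w 0.0971, Usp22 0.0508, Usp31 -0.0471, Usp39 -0.825 and Usp47 0.0328. With forward arrays alone they were Psma2 0.249, Psmc3ip -0.430, Psmd3 0.0810, Psme2b -0.705, Ube2l3 0.383, Usp22 0.0153 and Usp9x -0.126 in low calcium, and Psma2 0.0988 and Usp39 -0.378 in high calcium. With reversed arrays alone they were Psmb1 0.180 and Ube2n -0.260 in low calcium, and Psme3 -0.108, Ube2a 0.246, Usp5 -0.299 and Usp9x 0.202 in high calcium. With single arrays kept they were Psmd3 0.0315, Psme2b -0.173 and Ube2n -0.0985 in low calcium. In high calcium the replicate block gave Ube2j1 0.0445 and Usp39 -0.313, the array set as block Ube2j1 0.179, and the well-filled array set alone Usp47 0.0574. With a repeat left out Usp47 ran from -0.454 to 0.0574 in high calcium (above 0 without repeat 3) and Usp9x from -0.411 to 0.0016 (above 0 without repeat 2).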

Other observations

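Genes left out of the list by their names gave these values. Psmb10, an inducible catalytic subunit of the immunoproteasome, was at 0.03 ± 0.19 in low calcium (SE, n = 2 pairs) and at 0.04 ± 0.16 in high calcium (SE, n = 3 pairs). Psmb8 had a single pair, at -0.03 in high calcium repeat 2. Usp18, the protease of the interferon-induced modifier Isg15, had a single pair at each level, at 0.67 in low and 1.16 in high calcium repeat 1. Ube2c, the E2 of the anaphase-promoting complex, was lower in high calcium, at -1.06 ± 0.20 (SE, n = 2 pairs, limma adjusted p = 0.0312), with pairs at -0.85 and -1.28. It was at 0.27 with the deposited signs kept (adjusted p = 0.471), and was not called with forward arrays alone (-0.79, 0.331), reversed arrays alone (-1.34, 0.205), arrays on the same spread (-1.54, 0.0913), a trended and robust variance (-1.06, 0.405) or single arrays kept (-1.06, 0.790).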
